A study of Mus musculus with 7 samples.

Results

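The genes described here are 10 early response genes of germinal centre B cells: the EGR factors Egr1, Egr2 and Egr3, the NR4A nuclear receptors Nr4a1, Nr4a2 and Nr4a3, and Ier2, Dusp1, Dusp2 and Gadd45b. They were chosen by symbol, as the array probes whose single gene symbol in the platform annotation is one of these names. All 10 were found among 21515 named genes, each by 1 probe, and all 10 were among the 16136 genes bright enough to be tested.

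In germinal centres, activated B cells divide and mutate their antibody genes. Rras2 encodes R-Ras2, a relative of the RAS proteins, and the series compared messenger RNA in germinal centre B cells of mice with and without it. Splenic cells positive for B220, CD95 and GL7 were sorted 7 days after an intraperitoneal injection of sheep red blood cells, which all mice received, and total RNA of each sample was read on 1 Affymetrix whole-transcript array. Wild-type (WT) mice gave 4 of the arrays and RRas2-deficient mice gave 3. The sample descriptions write Rras-deficient where the titles write RRas2-deficient. The allele, strain, age and sex of the mice, and whether the gene was absent from all cells or only from B cells, are not given in the sources used here. The samples are called biological replicates without naming animals, so each p-value rests on the spread of these samples alone, which may be technical.

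Early response genes are transcribed within minutes of a signal from factors that are already present in the cell. In B cells the antigen receptor and CD40 switch them on through RAS and ERK, calcium and NF-kB, and several also respond to stress and to the handling of tissue. EGR proteins are zinc finger transcription factors, NR4A proteins are orphan nuclear receptors that are widely used as a readout of antigen receptor signalling, and the DUSP phosphatases and GADD45B act back on the MAP kinases.

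Promoter sequence from RefSeq (GRCm38.p6) was at hand for 7 of the 10 genes, all but Egr1, Egr3 and Ier2. It is shown because, of these 7, the genes that differed most between arrays, described further on, can be set beside those that differed least. That comparison was seen in these same values and was not tested. Its limits, for Nr4a2 and Nr4a3 and for the genes without a window, are given there. Each window in that collection holds 250 bases before an annotated start and 50 after it. Each sequence reads 5′ to 3′ on the strand of its gene and ends at the base before the start, except the 30-base stretches of Nr4a3 and Egr2. Capitals mark the letters TGACG on either strand, which is the half-site of the cAMP response element (CRE) read by CREB and ATF factors, the EGR site GCGGGGGCG and the CArG box of serum response factor. The windows are Nr4a1 at chr15:101266596-101266845 (plus strand), Nr4a2 at chr2:57124004-57124253 (minus strand), Nr4a3 at chr4:48045074-48045103 (plus), Dusp1 at chr17:26508473-26508722 (minus), Egr2 at chr10:67537797-67537826 (plus), Dusp2 at chr2:127335909-127336158 (plus) and Gadd45b at chr10:80929841-80930090 (plus).
Nr4a1: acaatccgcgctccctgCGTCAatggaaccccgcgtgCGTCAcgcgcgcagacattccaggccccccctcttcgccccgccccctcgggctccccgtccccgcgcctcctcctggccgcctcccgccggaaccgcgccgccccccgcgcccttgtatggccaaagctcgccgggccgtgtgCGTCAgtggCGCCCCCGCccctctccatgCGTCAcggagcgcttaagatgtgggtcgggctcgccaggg
Nr4a2: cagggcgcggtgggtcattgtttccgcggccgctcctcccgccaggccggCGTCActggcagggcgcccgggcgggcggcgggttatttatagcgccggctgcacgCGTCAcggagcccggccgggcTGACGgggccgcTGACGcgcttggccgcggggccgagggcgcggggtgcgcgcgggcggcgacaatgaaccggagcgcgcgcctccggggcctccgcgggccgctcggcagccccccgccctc
Nr4a3: TGACGtagcgtcccatgtCGTCAcattgac
Dusp1: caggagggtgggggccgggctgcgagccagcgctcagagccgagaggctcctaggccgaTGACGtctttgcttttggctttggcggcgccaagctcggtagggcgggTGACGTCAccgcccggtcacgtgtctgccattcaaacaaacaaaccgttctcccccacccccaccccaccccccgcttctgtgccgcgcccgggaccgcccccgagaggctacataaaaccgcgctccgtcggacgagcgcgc
Egr2: CCATATATGGgcagcgaCGTCAcgggtatt
Dusp2: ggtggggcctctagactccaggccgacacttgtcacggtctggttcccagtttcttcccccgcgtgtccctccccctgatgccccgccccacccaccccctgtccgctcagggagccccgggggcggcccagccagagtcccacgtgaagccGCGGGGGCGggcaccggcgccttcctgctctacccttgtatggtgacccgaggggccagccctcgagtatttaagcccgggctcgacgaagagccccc
Gadd45b: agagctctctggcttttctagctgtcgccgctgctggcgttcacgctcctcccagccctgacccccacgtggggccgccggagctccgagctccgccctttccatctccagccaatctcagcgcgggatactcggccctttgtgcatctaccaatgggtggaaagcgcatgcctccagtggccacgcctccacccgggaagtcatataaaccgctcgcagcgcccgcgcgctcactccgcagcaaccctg

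The 300-base windows of Nr4a1, Nr4a2 and Nr4a3 each held TGACG 4 times and that of Dusp1 held it 3 times, counting both strands. The Nr4a3 stretch shown holds 2 of its 4 whole. Another is cut off at the end of that stretch and so is not in capitals, and the last lies nearer the start. A copy count of at least 3 occurs in 1.03% of all 32851 promoter windows and in 2.27% of the 9690 windows with at least 60% G and C. The Dusp1 window also held the full CRE TGACGTCA, which accounts for 2 of its 3 half-sites and occurs in 1.79% of all windows. The Egr2 stretch shown holds a CArG box and 1 half-site, and a second half-site lies farther upstream in the same window. The 5 annotated Egr2 windows held 0 or 2 half-sites. A CArG box occurs in 1.63% of all windows. Dusp2 held 1 half-site, which lies after its start and so outside the stretch shown. Nr4a1 and Dusp2 each held 1 EGR site, a motif found in 2.91% of all windows. The Gadd45b window held none of these letters. The windows of the 7 genes had 56.0% to 81.7% G and C. A match is a string of letters in this window and was not tested as a binding site.

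**Figure D1:**
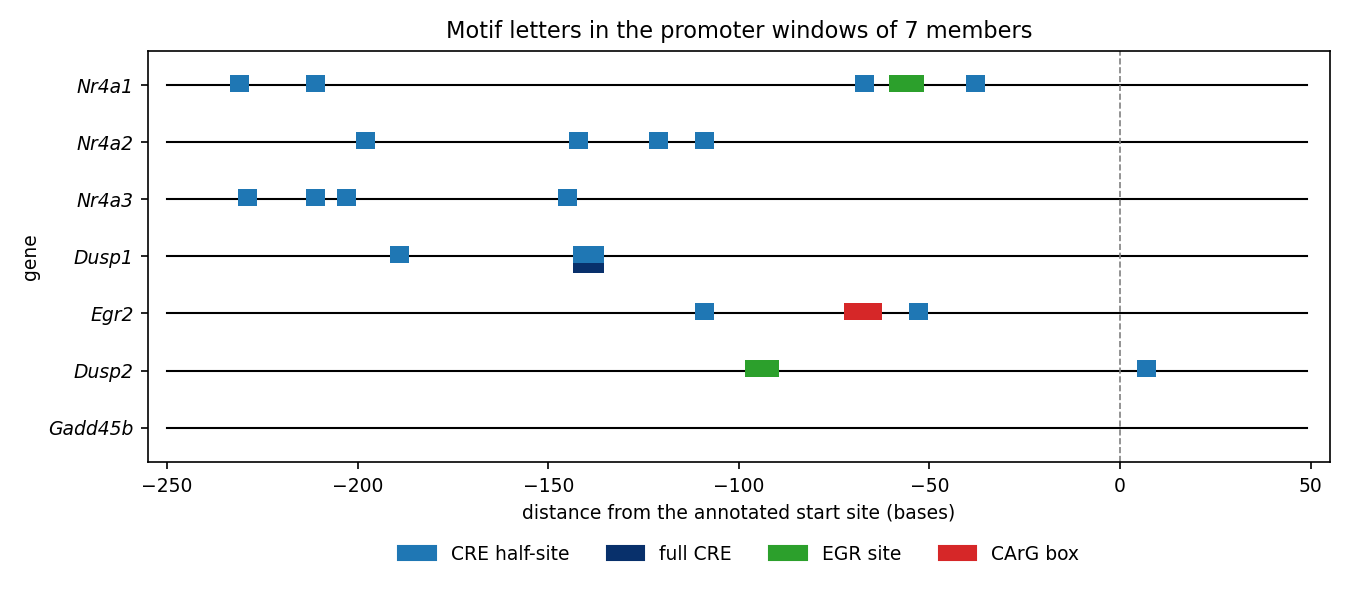
Position of the motif letters in the promoter windows of 7 genes, in bases from the annotated start site (dashed line), with the full CRE drawn below the line. Nr4a1, Nr4a2 and Nr4a3 hold 4 CRE half-sites each and Dusp1 holds 3, against 2, 1 and 0 in Egr2, Dusp2 and Gadd45b.

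A split of the 7 arrays that runs across both genotypes bears on every gene below. The interquartile range of all log2 intensities was 2.37 to 2.49 on WT replicates 1 and 2 and RRas2-deficient replicate 2, called the narrower arrays here, and 2.69 to 2.91 on WT replicates 3 and 4 and RRas2-deficient replicates 1 and 3, called the wider arrays. Leaving the 10 genes out gave the same sets. The sets come from the values, not from the labels, so differences between them are described without a test. Rras2 itself read 7.90 ± 0.74 (SD, n = 4) in WT and 6.91 ± 0.22 (SD, n = 3) in deficient cells in log2 units. The difference of -0.99 ± 0.39 (SE) had an unadjusted p of 0.042 and did not pass over all genes (limma adjusted p = 1.00). Every deficient array (6.68 to 7.12) lay below every WT array (7.13 to 8.66), and with the array set as block the difference was -1.13 ± 0.20 (SE, limma adjusted p = 0.296). The related gene Rras differed by 0.07 ± 0.19. Where the deletion lies is not given, so a probe outside it would check nothing.

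No difference between genotypes was detected in the 10 early response genes. At a limma adjusted p under 0.05, 0 of the 10 passed, against 0.0124% of all tested genes, and at an unadjusted p under 0.05 also 0 of 10, against 0.818%. When arrays were weighted by their estimated quality, 3 of 10 had an unadjusted limma p under 0.05, against 7.83% of all genes: Egr2 (-0.37 ± 0.09, SE), Gadd45b (-0.32 ± 0.10) and Ier2 (-0.60 ± 0.25). None of the 3 passed (limma adjusted p = 0.631 for each), and the median over the 10 genes was then -0.34. WT replicate 4 had a weight of 6.61 in that fit and the other arrays 0.29 to 2.30. The genotypes overlapped in all 10, where 1.08% of tested genes had genotypes that did not overlap. The mean was lower in deficient cells for 8 of the 10, against 48.3% of all tested genes, with a median log2 difference of -0.16 against 0.00 over all genes. That count rested on single arrays: it was 4 of 10 without RRas2-deficient replicate 1, with a median of 0.01, and 10 of 10 without RRas2-deficient replicate 2 or without WT replicate 3. Once the array set entered the limma model as a block, 6 of 10 were lower, against 50.9% of all tested genes, and the median was -0.10.

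Among the EGR genes, Egr1, the best known member and a direct ERK-responsive gene, had log2 levels of 7.07, 7.21, 6.49 and 7.18 in the WT samples, in the order of their replicate numbers, and of 6.64, 7.73 and 6.66 in the deficient samples. The highest and next to lowest arrays were both from deficient cells. The log2 difference was 0.02 ± 0.32 (SE; 95% interval -0.73 to 0.78, limma adjusted p = 1.00). Egr2, a factor known to restrain lymphocyte activation, read 6.35, 6.45, 6.33 and 6.44 in WT and 6.10, 6.55 and 5.91 in deficient cells. The 4 WT arrays lay close together, with an SD of 0.06 against 0.33 in deficient cells, and deficient replicates 1 and 3 lay below all of them while replicate 2 lay above. The difference was -0.20 ± 0.15 (SE; 95% interval -0.57 to 0.16, limma adjusted p = 1.00). Egr3, which acts redundantly with Egr2 in lymphocytes, read 6.71, 7.12, 6.03 and 6.38 in WT and 6.35, 6.97 and 6.11 in deficient cells, a difference of -0.08 ± 0.31 (SE, limma adjusted p = 1.00). Its 3 highest values were those of the 3 narrower arrays.

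Among the NR4A genes, Nr4a1 and Nr4a3 had the largest SDs of the 10 genes over the 7 arrays (1.60 and 0.74), while Nr4a2 (0.47) varied less than Dusp1 (0.71) and Ier2 (0.58). Nr4a1, which encodes NUR77, had log2 levels of 8.76, 9.77, 6.59 and 6.69 in the WT samples and of 6.23, 9.54 and 6.20 in the deficient samples. Both genotypes therefore held arrays near 9 and arrays near 6, with SDs of 1.57 (n = 4) and 1.92 (n = 3). The difference of -0.63 had an SE of 1.13 and a 95% interval of -3.31 to 2.05 (limma adjusted p = 1.00), so without the block a change of several fold in either direction lay within the interval. Nr4a2, which encodes NURR1, read 4.29, 4.29, 3.26 and 3.41 in WT and 3.56, 4.35 and 3.58 in deficient cells, a difference of 0.02 ± 0.34 (SE, limma adjusted p = 1.00). Nr4a3, which encodes NOR1, read 4.30, 4.83, 3.36 and 3.71 in WT and 3.39, 5.04 and 3.23 in deficient cells, a difference of -0.16 ± 0.53 (SE, limma adjusted p = 1.00). On the wider arrays both averaged under the limit of 3.48 for dim genes (3.45 and 3.42), so they were tested through the narrower arrays and the sizes of their differences are uncertain.

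Of the remaining genes, Ier2, a nuclear protein gene of the immediate early class, read 6.21, 6.56, 5.27 and 6.10 in WT and 5.22, 6.56 and 5.52 in deficient cells, with a difference of -0.27 ± 0.41 (SE, limma adjusted p = 1.00). Dusp1, the phosphatase MKP-1 that shuts off p38 and JNK, read 8.53, 8.45, 6.95 and 7.94 in WT and 6.85, 8.44 and 7.65 in deficient cells, with a difference of -0.32 ± 0.50 (SE, limma adjusted p = 1.00). In both genes the lowest arrays were WT replicate 3 and RRas2-deficient replicate 1. Dusp2, the nuclear phosphatase PAC-1 of lymphocytes, read 8.68, 8.76, 8.52 and 8.60 in WT and 8.27, 8.76 and 8.55 in deficient cells, a difference of -0.11 ± 0.13 (SE; 95% interval -0.43 to 0.20, limma adjusted p = 1.00). Gadd45b, a stress gene and NF-kB target whose protein binds upstream kinases of JNK and p38, read 9.22, 9.34, 9.28 and 9.50 in WT and 9.01, 9.27 and 9.27 in deficient cells, a difference of -0.15 ± 0.11 (SE; 95% interval -0.41 to 0.11, limma adjusted p = 1.00). These last 2 genes varied less over the 7 arrays, with SDs of 0.17 and 0.15, than did 62.9% and 70.9% of all tested genes.

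**Figure D2:**
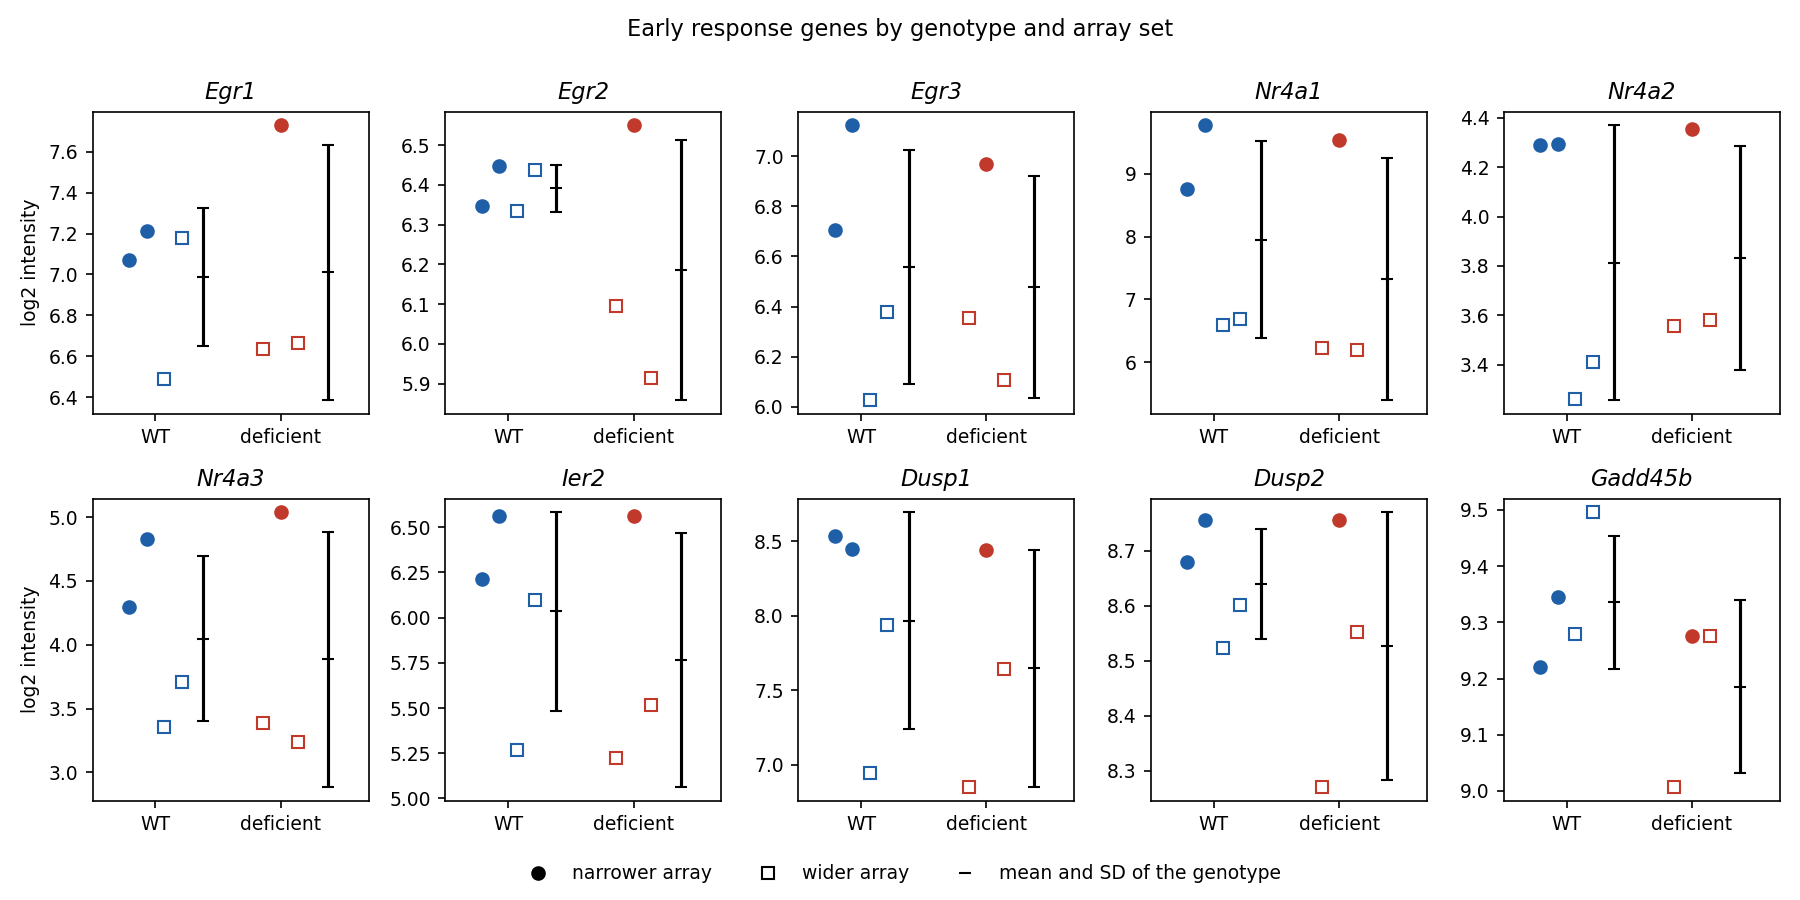
Log2 intensity of each gene in 4 WT (blue) and 3 RRas2-deficient (red) samples, with filled circles for narrower and open squares for wider arrays and the mean and SD of each genotype beside them; each panel has its own scale, which does not start at 0. In Nr4a1, Nr4a2 and Nr4a3 the filled circles of both genotypes lie above every open square, while Gadd45b shows no such order.

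In the model blocked on array set the median standard error was smaller, and the genotype differences moved toward 0 for most genes. Over the 10 genes that median was 0.33 without and 0.17 with the block. Nr4a1 differed by -0.14 ± 0.26 (SE; 95% interval -0.75 to 0.46), Dusp1 by -0.13 ± 0.27 and Ier2 by -0.12 ± 0.23. Egr3 and Nr4a3 changed sign, to 0.04 ± 0.14 and 0.06 ± 0.20. Nr4a2 had the lowest p of the 10, at 0.17 ± 0.08 (SE, limma adjusted p = 0.551), at levels near the dim limit. In this model 0 of the 10 passed at an adjusted p under 0.05, against 0.0124% of all genes, and 0 of 10 at an unadjusted p under 0.05, against 10.1%. Their limma adjusted p ran from 0.551 to 0.951.

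Within the sets the genotype differences pointed in different directions. On the 4 wider arrays, 2 of each genotype, 8 of the 10 genes had lower means in deficient cells, among them Nr4a1 (-0.43), Egr2 (-0.38), Ier2 (-0.31) and Gadd45b (-0.25). On the 3 narrower arrays the single deficient array lay above the mean of the 2 WT arrays in 8 of the 10, among them Egr1 (0.59), Nr4a3 (0.48) and Nr4a1 (0.28). The only deficient array in the narrower set carries that direction alone, and whether the differences depend on the set was not tested. The share over all tested genes was not taken within a set, so neither count says that these genes stand out.

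**Figure D3:**
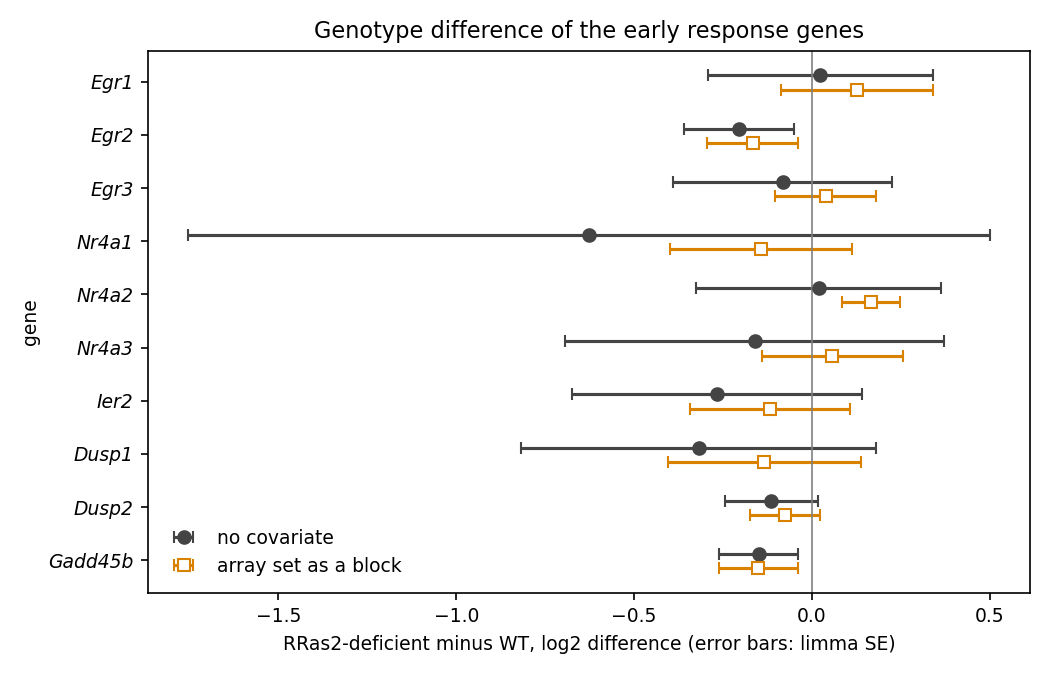
Log2 difference of RRas2-deficient minus WT cells for the 10 genes, with limma standard errors, without a covariate (circles) and with the array set as a block (squares). The block narrows the error of Nr4a1 from 1.13 to 0.26, and no gene passed in either model.

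All 10 genes had higher means on the narrower arrays, against 52.9% of all tested genes, and in 7 of them every narrower array lay above every wider one, against 13.6% of all tested genes. The 7 were Egr3, Nr4a1, Nr4a2, Nr4a3, Ier2, Dusp1 and Dusp2. Nr4a2 and Nr4a3 passed the filter through the narrower arrays and so had to lie higher there. Among genes above the dim limit on both sets the count was 5 of 8, against 13.2%. The median difference, narrower minus wider, was 0.79 over the 10 genes and 0.02 over all tested genes. Scaling bears on this count. After a further quantile normalization it was 10 of 10, against 18.1% of all genes, and with arrays centred on their medians it was 5 of 10, against 4.96%. Centring moved the median of all genes from 0.02 to -0.11, and the median of the 10 genes was then 0.65. Leaving out 1 array at a time gave a count of 7 to 9 of 10, with 9 without WT replicate 1 or without WT replicate 4, against 14.5% to 22.8% of all genes. The counts after rescaling and after leaving out arrays all include Nr4a2 and Nr4a3, which the filter bound to lie higher on the narrower arrays. They were not repeated for genes above the dim limit on both sets.

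The size of that difference set the genes apart from each other. Nr4a1 averaged 9.35 ± 0.53 (SD, n = 3) on the narrower and 6.43 ± 0.25 (SD, n = 4) on the wider arrays, a log2 difference of 2.93 or 7.60-fold, and 0.0186% of tested genes were higher on the narrower arrays by more. Dusp1 differed by 1.13 (2.19-fold), Ier2 by 0.92 (1.89-fold) and Egr3 by 0.72 (1.64-fold), and 0.614%, 0.892% and 1.43% of tested genes were higher there by more. Counting differences in either direction, the shares were 0.031% for Nr4a1, 5.23% for Dusp1, 9.1% for Ier2 and 14.5% for Egr3. The log2 values of Nr4a3 and Nr4a2 differed by 1.30 and 0.86, with no fold given because their means on the wider arrays lay under the dim limit. Egr1 followed at 0.60, with overlap because WT replicate 4, a wider array, read 7.18 and WT replicate 1, a narrower one, 7.07. At the other end were Egr2 (0.25), Dusp2 (0.24) and Gadd45b (0.02), the last of which turned to -0.12 with centred arrays and to 0.46 after quantile normalization. Nr4a1, Nr4a2, Nr4a3 and Dusp1, whose promoter windows held 3 or 4 CRE half-sites, thus had larger differences than Egr2, Dusp2 and Gadd45b, whose windows held fewer. Nr4a2 and Nr4a3 passed the filter through the narrower arrays and so had to lie higher there, which leaves Nr4a1 and Dusp1. After quantile normalization the order did not hold for Nr4a2 (0.72) against Dusp2 (0.74). Egr1, Egr3 and Ier2, at 0.60, 0.72 and 0.92, had no promoter window at hand and have no place in this order. The relation was seen in these values and was not tested.

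Within WT arrays alone, 9 of the 10 genes had a higher mean on the 2 narrower than on the 2 wider arrays, and Gadd45b was the exception at -0.10. In deficient cells the 1 narrower array lay above the mean of the 2 wider ones in all 10 genes. Both counts reuse the arrays that made the sets and include Nr4a2 and Nr4a3, which passed the filter through the narrower arrays. The share over all tested genes was not taken within a genotype, so neither count says that these genes stand out. For Nr4a1 the difference was 2.62 in WT and 3.33 in deficient cells, for Nr4a3 1.03 and 1.73, and for Dusp1 1.05 and 1.19.

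**Figure D4:**
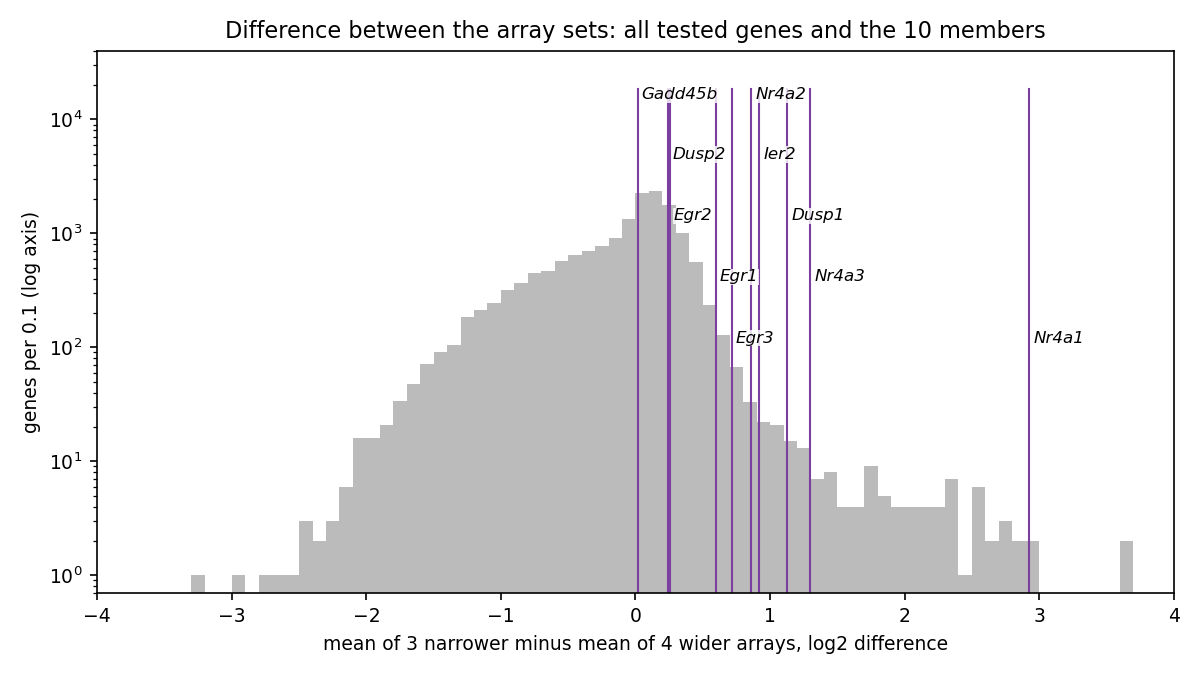
Distribution over 16136 tested genes of the mean of the 3 narrower minus the mean of the 4 wider arrays (log2; gene counts on a log axis), with lines at the 10 early response genes. Nr4a1 lies at 2.93 in the far right tail, Nr4a3 and Dusp1 at 1.30 and 1.13, and Gadd45b at 0.02 near the middle.

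The 10 genes did not share 1 profile over the arrays. Distance between profiles was measured as the root mean square difference of the log2 values of 2 genes over the 7 arrays after each gene's mean was removed. Of the 45 pairs the closest were Dusp2 and Gadd45b (0.13), Egr2 and Dusp2 (0.16), and Egr3 and Nr4a2 (0.18). Dusp2 and Gadd45b are the members that varied least. Ier2 and Dusp1 lay 0.22 apart and Egr1 and Ier2 0.23. Nr4a1 was farthest from all the others, at 0.82 from Nr4a3 and up to 1.47 from Gadd45b.

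On the wider arrays Nr4a1 and Dusp1 showed different orders. Nr4a1 lay between 6.20 and 6.69 on all 4. Dusp1 read 7.94 on WT replicate 4 and 7.65 on RRas2-deficient replicate 3, against 6.95 on WT replicate 3 and 6.85 on RRas2-deficient replicate 1. Ier2, Dusp2 and Egr1 shared this split, Egr1 only narrowly (6.66 on RRas2-deficient replicate 3 against 6.64 on replicate 1). The other members did not. Fos, Fosb and Jun, whose proteins are parts of the AP-1 transcription factor, also read higher on WT replicate 4 and deficient replicate 3 than on the other wider arrays. Fos read 7.93 on WT replicate 4 and 7.93 on deficient replicate 3, against 6.17 and 5.71 on WT replicate 3 and deficient replicate 1. Fosb read 7.26 and 7.17 on the first 2 of these arrays against 5.67 and 5.47 on the other 2, and Jun read 8.74 and 8.11 against 6.85 and 7.02. Each pair of arrays held 1 WT and 1 deficient sample.

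**Figure D5:**
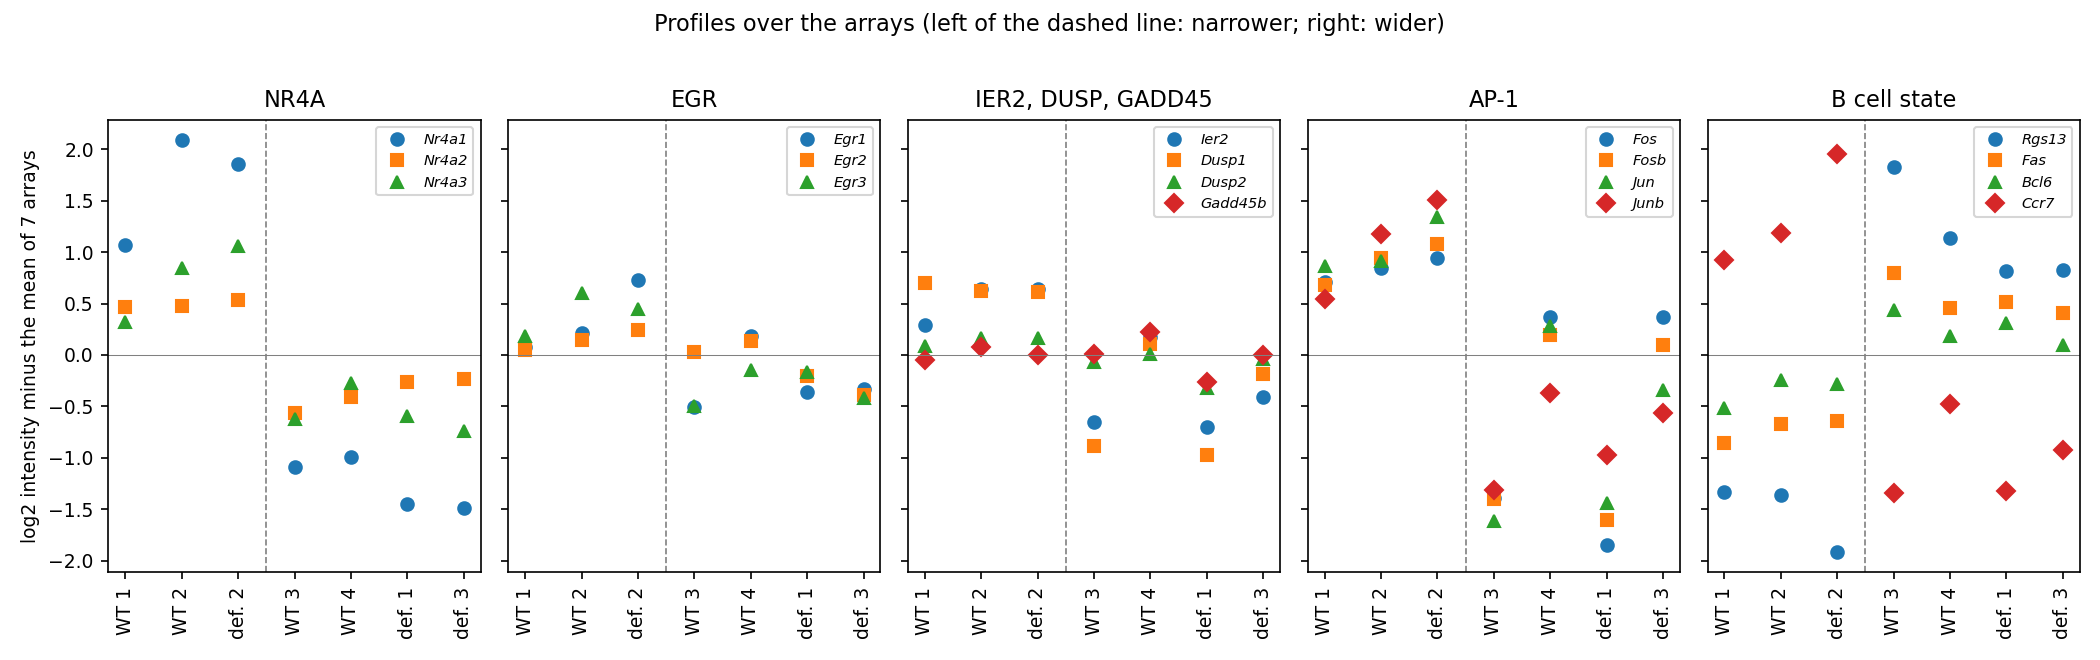
Log2 intensity minus the gene's mean over 7 arrays for the NR4A, EGR and remaining early response genes, AP-1 genes and B cell state genes, with narrower arrays left and wider arrays right of the dashed line (def., RRas2-deficient). Nr4a1 stays low on all 4 wider arrays, Fos, Fosb, Jun and Dusp1 are higher on WT replicate 4 and deficient replicate 3 than on the other 2 wider arrays, and Rgs13 and Ccr7 run in opposite directions.

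The 8 genes whose profile lay closest to the mean profile of the 10 were Rps27, Tnfaip3, Grasp, Klf11, Phlda1, Myc, Lce3c and 1 predicted gene, with distances of 0.06 to 0.14 over 7 arrays. Tnfaip3 encodes A20, which shuts off NF-kB signalling, and read 7.33, 7.71 and 7.76 on the narrower and 6.53 to 6.75 on the wider arrays. Myc, the growth factor-induced transcription factor gene, read 8.25, 8.54 and 8.85 on the narrower and 7.43 to 7.79 on the wider arrays. The ribosomal protein gene Rps27 was the closest of all, at 0.06. None of the 8 passed the genotype test (limma adjusted p = 1.00 for each).

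Of 40 other immediate early genes tested, such as Fos, Jun, Btg2 and Nfkbia, 0 passed between genotypes in either direction, and 29 had lower and 11 higher means in deficient cells, with a median difference of -0.08 (0.00 with the block). On the narrower arrays 37 of 40 had higher means, against 52.9% of all tested genes, with a median of 0.60. In 28 every narrower array lay above every wider one, against 13.6% of all genes. Ppp1r15a, the stress gene GADD34 that restarts translation, differed most by set (2.08), followed by Junb (1.88) and Jun (1.82). The genes of lowest genotype p were Rgs2 (-0.20 ± 0.18, log2 difference ± SE), Kdm6b (-0.49 ± 0.50) and Zfp36 (-0.24 ± 0.24).

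Among the partners of the EGR factors, Egr4 differed by 0.23 ± 0.26 (SE) between genotypes, and the co-repressor genes Nab1 and Nab2 by 0.08 ± 0.20 and -0.27 ± 0.16, with none of the 3 passing. Of 12 other DUSP and GADD45 genes 0 passed and 8 had lower means (median -0.06). By array set they were mixed, with 3 higher without overlap, against 13.6% of all genes, 3 lower without overlap, against 26.9%, and a median of -0.04. Gadd45g was higher on the narrower arrays by 0.87 and Dusp16 was lower by 0.98.

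On the deposited scale the genes that act upstream mostly read lower on the narrower arrays, while 52.9% of all tested genes had higher means there. The lists here and below were not rescaled, so how scaling bears on them was not tested. Of 16 transcription factor and coactivator genes that switch early genes on, among them Srf, Elk3, Creb1 and Nfatc3, 15 were lower on the narrower arrays, 11 of them without overlap, against 26.9% of all tested genes. Their median difference was -0.31, with Elk3 at -0.80 and Nfatc3 and Mef2a at -0.73 each. All 13 tested RAF, MEK, ERK, p38 and JNK pathway kinase genes were lower there, 8 without overlap, against 26.9% of all tested genes. Their median was -0.53, and Rps6ka3, an ERK-activated kinase gene, differed by -1.24. None of these genes passed between genotypes, and their medians were 0.05 for the factors and -0.05 for the kinases, or -0.01 and -0.14 in the blocked model.

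Of 14 genes that restrain antigen receptor signalling, several of them linked to EGR2, EGR3 or NR4A, 0 passed between genotypes and the median was -0.05. The 2 of lowest p were the adapter genes Sh2d2a (-0.36 ± 0.10) and Sla (-0.42 ± 0.13), each with an adjusted p of 1.00 in limma. In the light zone and CD40 response list 0 of 16 passed and 10 had lower means (median -0.03), and by array set the list split into 7 higher and 9 lower. Cd69 (1.45) and Myc (0.91), which the immediate early list holds too, and Irf4 (1.01) were higher on the narrower arrays, while Cd86 was lower (-0.82). In the dark zone list 0 of 10 passed (median -0.01). On the narrower arrays 9 of 10 were lower with a median of -1.03, while 52.9% of all tested genes were higher there. In 7 of the 10 every narrower array lay below every wider one, against 26.9% of all tested genes.

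Markers of B cell state moved with the array sets too. All 8 measured markers of germinal centre B cells, general B cell genes included, were lower on every narrower array than on every wider one, against 26.9% of all genes, with a list mean of 9.02 to 9.20 against 10.02 to 10.44. Rgs13, a defining gene of germinal centre B cells, read 6.44, 6.40 and 5.86 on the narrower and 8.59 to 9.59 on the wider arrays, and Fas, which encodes the sort marker CD95, read 7.11 to 7.33 against 8.38 to 8.77. Ccr7, the lymph node homing receptor gene of resting B cells, read 8.07, 8.33 and 9.10 against 5.81 to 6.67, and the 4 measured markers of other B cells had a list mean of 8.66 to 8.97 against 7.78 to 8.29. Of these 4, Ccr7 was higher without overlap, Cr2, the complement receptor gene, was lower without overlap (-0.32), and Fcer2a and Cd55 overlapped. In bulk RNA fewer cells of a type and less RNA per cell cannot be told apart. By genotype the germinal centre list spanned 9.14 to 10.44 in WT and 9.02 to 10.07 in deficient cells, with a median difference of -0.07. In the blocked model that median was -0.21 and 4 of 8 were lower at an unadjusted limma p under 0.05. Of all tested genes 10.1% had such a p in either direction, and 0 of these 8 markers passed after adjustment. Their part in the early gene pattern was not tested.

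The 9 T and NK cell markers had a list mean of 4.08 to 4.51 on the narrower and 3.82 to 3.99 on the wider arrays, with the highest value on WT replicate 1, where Cd3g read 4.99 against 3.69 to 3.94 on the other 6. The 10 macrophage, monocyte and dendritic markers ranged from 4.63 to 4.74 and from 4.24 to 4.87, the 5 neutrophil markers from 3.27 to 3.41 and from 3.13 to 3.26, and the 5 erythroid and platelet markers from 4.13 to 4.28 and from 3.95 to 4.07. The 5 endothelial and stromal markers lay at 5.50 to 5.55 against 5.33 to 5.40, and the 4 plasma cell markers at 6.61 to 7.03 against 7.23 to 7.62. Their part in the early gene pattern was not tested.

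The heat shock genes did not share the profile as a list. Of 12 tested, 3 were higher without overlap on the narrower arrays, against 13.6% of all genes, and 5 were lower, against 26.9%, with a median of 0.07. Between genotypes 0 passed (median -0.18). In the blocked model the median was -0.29 and 4 of 12 were lower at an unadjusted limma p under 0.05, against 10.1% of all genes in either direction, with 0 passing after adjustment. Hspa1a, the inducible HSP70 gene, read 7.89 on WT replicate 1 and 3.50 to 4.57 on the other 6 arrays. The part of heat shock genes in the early gene pattern was not tested.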

How the data were processed

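The authors deposited log2 intensities per transcript cluster of 1 whole-transcript Affymetrix array per sample (25349 probes, 7 arrays), made with RMA and the package oligo per the submitters' processing notes, both without a version. RMA equalises distributions at the level of single probes, yet the interquartile range of the deposited values differed between arrays, for a reason the sources used here do not give. Arrays have no read depth, and their number limits the precision. Titles gave the groups.

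Genes were named from the platform annotation (22225 probes with 1 symbol, 616 with several, 2508 with none). The brightest of several probes stood for a gene. A mean level below the 25th percentile of genes (3.48) left a gene out. limma 3.58.1 in R 4.3.3 was fitted to 16136 genes (RRas2-deficient minus WT, two-sided, Benjamini-Hochberg, threshold 0.05), and checked on simulated data. The simulation drew independent noise for each gene and array, without array sets, so it does not check the test under such sets. The interquartile range parted the array sets where its sorted values lay farthest apart (a gap of 0.197, around 2.59). Lists are described by counts and medians. The named genes are the 10 members, Rras2, the 8 genes of nearest profile, and of each list the 3 of lowest p or of largest set difference; Fos, Fosb, Cd86 and the genes given as examples of a list were chosen after their values were seen. Members, lists, sets and block were chosen with earlier results of these data known. Alternatives are in the closing section. The scalings and omissions of arrays applied to the array sets, the restriction to genes above the dim limit on both sets and the share of GC-rich promoters were chosen after seeing the data.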

Additional observations from a re-analysis of the deposited data

How the results depend on the processing

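The 10 genes were refitted under 24 other settings, which gave 238 differences between genotypes. Many of these were bound to repeat. With 1 probe per gene, a changed filter, averaged probes or an intensity trend cannot move a difference. The replicate block returned the differences found without WT replicate 4. Without WT replicate 1 or 2 or RRas2-deficient replicate 1 or 3, the set block left the differences unchanged. Of the 238, 35 had the opposite sign to the reported one, a share that those repeats make hard to read. Of the 238, 0 passed the threshold (lowest limma adjusted p = 0.325), so the count of members past it was 0 in each setting. The count over all genes was 2, and it was 1 with arrays centred on their medians, 5 with array weights, 0 to 2 without 1 array and 1 to 2 without 1 array with the set as a block. Nr4a2 turned to -0.0013 with centred arrays and -0.054 with the interquartile range as a covariate, and Egr1 to -0.37 with array weights and -0.026 with that covariate. Egr3 and Nr4a3 turned to 0.038 and 0.057 with the set as a block. The cause was not tested.

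Leaving out 1 array at a time, the difference ran from -0.34 to 0.21 for Egr1, -0.33 to 0.11 for Egr3, -0.24 to 0.18 for Nr4a2, -0.74 to 0.16 for Nr4a3, -0.66 to 0.0036 for Ier2, -0.72 to 0.078 for Dusp1 and -0.23 to 0.014 for Dusp2. With the set as a block these ranges were -0.18 to 0.38, -0.05 to 0.13, 0.11 to 0.24, -0.22 to 0.21, -0.31 to 0.14, -0.37 to 0.13 and -0.15 to 0.014. In that model values of the opposite sign were also 0.099 for Nr4a3 without WT replicate 2, 0.039 without WT replicate 3, and 0.089 and 0.16 without RRas2-deficient replicates 1 and 3. For Egr3 they were 0.11 without WT replicate 2 and 0.028 and 0.10 without RRas2-deficient replicates 2 and 3. Without RRas2-deficient replicate 1 they were 0.0036 for Ier2 and 0.078 for Dusp1. Nr4a1 (-1.74 to -0.02), Egr2 (-0.39 to -0.07) and Gadd45b (-0.19 to -0.06) kept their sign without the block, and with it too.

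The deviations of same-numbered samples correlated at -0.589, 0.784 and 0.664 for replicates 1, 2 and 3. Both samples of replicate 2 were narrower arrays, both of replicate 3 were wider, and replicate 1 had 1 of each. Pairing by number and array set therefore cannot be told apart in these values. With a replicate block the count over all genes was 0 and Nr4a2 was -0.12. With a filter at the 50th percentile Nr4a2 and Nr4a3 were not tested. With 3 and 4 arrays a group, the number of arrays limits the precision, and levels near 3.48 lie close to background.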
